A study of Mus musculus with 3 samples.

Results

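Keratins are the proteins of the cytoplasmic filaments of epithelial cells. The keratin genes were taken as all protein-coding mouse genes of the expression tables whose symbol is Krt followed by a number only. This gave 49 of the 29267 genes in the tables. At least 1 library had a count for 23 of the 49, and the other 26 were at 0 in all 3 libraries.

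Expression was measured by RNA-seq in a study of how retinoic acid and a stable form of vitamin C act on reprogramming, in which fibroblasts are turned into pluripotent stem cells. The 3 libraries analysed here are of cells that did not undergo reprogramming, namely the starting fibroblasts and the pluripotent reference. Mouse embryonic fibroblasts (MEFs) were represented by 1 library of the OG2 strain and 1 of the ICR strain, both at passages 3 to 5. Mouse embryonic stem cells (ESCs) were represented by 1 library of the R1 line at passage 30, labelled naive, with no genetic change and no treatment given in the labels. No treatment is given for the MEFs either. OG2 mice carry Oct4-GFP, a transgenic reporter that lights up in pluripotent cells. The MEF libraries therefore differ in strain as well as in culture, and the ESC side was not replicated.

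A keratin filament is built from paired chains, of which 1 is an acidic type I keratin and the other a basic type II keratin. Simple epithelia, which have a single cell layer, use Krt8 with Krt18, often joined by Krt7 and Krt19. The basal cells of stratified epithelia such as epidermis use Krt5 with Krt14, and the cells above them use Krt1 with Krt10 in epidermis or Krt4 with Krt13 in the lining of mouth and oesophagus. Krt6a, Krt16 and Krt17 are made in hair follicles and in wounded or rapidly dividing stratified epithelium. Hair keratins harden the hair shaft. Fibroblasts build their filaments mainly from vimentin, and Krt8 and Krt18 are among the earliest keratins of the mouse embryo.

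The expected counts, which are read numbers estimated by RSEM, summed to 5149312 in the OG2 library, 4590619 in the ICR library and 1717838 in the ESC-labelled library. The share that a count of 0 still allows at these depths, taken as 3 counts, was 0.583, 0.654 and 1.75 CPM, a count scaled to a common library total. The MEF libraries differed from each other by more than sampling noise, with a chi-square of 6.62 per degree of freedom over 12745 genes, and were treated as 2 samples. The ESC-labelled library went against its label in part. Of 12 pluripotency markers it had 0 counts for 6 (Zfp42, Esrrb, Dppa5a, Utf1, Dppa3 and Dppa4), while Pou5f1 had 71 counts, Nanog 51.14 and Sox2 32. The same 12 markers summed to 1.87 and 1.15 TPM (a level per transcript length) in the OG2 and ICR libraries and to 58.9 TPM in the ESC-labelled library. All 12 fibroblast markers were detected in every library, the ESC-labelled library included. The MEF libraries matched their label by level, since these markers summed to 8761 and 9795 TPM, against 254 TPM in the ESC-labelled library. Every level below is of bulk RNA, in which more cells of a type and more RNA per cell cannot be told apart.

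Keratins made up 0.00676% of the counts in the OG2 library, 0.00695% in the ICR library and 0.0494% in the ESC-labelled library. Levels of different genes were compared as TPM, which divides by gene length. On this scale the 49 keratins summed to 80.7 TPM in the OG2 library, 89.3 TPM in the ICR library and 351 TPM in the ESC-labelled library. The last was 4.13 times the mean of the MEF libraries, which differed from each other by far less. The makeup differed as well. The simple keratins Krt7, Krt8, Krt18 and Krt19 held 79.7% and 83.6% of keratin TPM in the OG2 and ICR libraries and 29.2% in the ESC-labelled library. The stratified keratins held 13.1% and 11.6% in the MEFs and 69.8% in the ESC-labelled library. In absolute terms the simple keratins summed to 64.3, 74.7 and 102 TPM in the same order, and the stratified keratins to 10.6, 10.3 and 245 TPM.

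**Figure D1:**
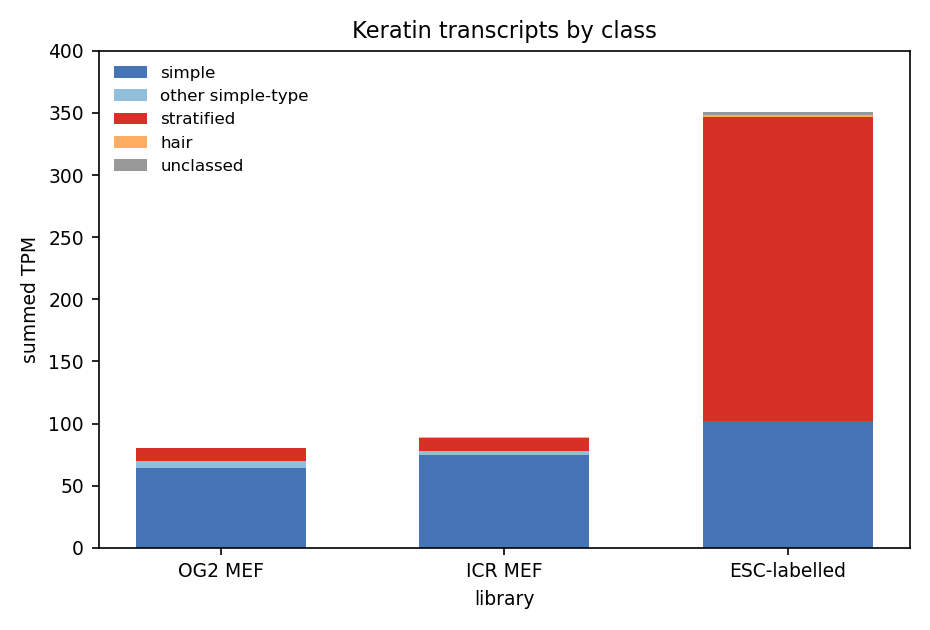
Keratin transcripts by class in each library. Bars are stacked sums of TPM over the members of each class, with 1 bar for each library and no error bar because each bar is 1 library. The OG2 and ICR MEF bars reach 80.7 and 89.3 TPM and are mostly simple keratins, while the bar of the ESC-labelled library reaches 351 TPM and is mostly stratified keratins.

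The order of the keratins by TPM was much alike in both MEF libraries. Krt19 led with 34.6 and 36.4 TPM, followed by Krt7 with 17.9 and 19.0 TPM and Krt18 with 10.5 and 14.5 TPM. In the ESC-labelled library, Krt14 led with 205 TPM, followed by Krt8 with 54.1 TPM, Krt19 with 39.0 TPM, Krt17 with 23.5 TPM and Krt16 with 9.75 TPM. Krt14 ranked 596 among all genes of that library by TPM, against 13744 and 11519 in the OG2 and ICR libraries.

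To compare the libraries gene by gene, counts were scaled with TMM factors, which align the bulk of genes between libraries, and expressed as log2(CPM + 1). The difference of a gene is its value in the ESC-labelled library less the average of the MEF libraries. The added 1 draws it toward 0 where counts are low. Counting error alone can still give large differences there, as 2 counts against 0 in MEFs gave 1.28 for Krt77. With the quasi-likelihood test of edgeR and Benjamini-Hochberg adjustment over all tested genes, 7 keratins were higher in the ESC-labelled library and 2 were lower at an adjusted p under 0.05. A further 2 were tested and not called, and 38 had too few counts to be tested. The filter on low counts lets a gene pass on 1 library alone. Krt13 and Krt14, with few counts in MEFs, and Krt16 and Krt17, with 0, passed on the ESC-labelled library alone. These keratins thus could not be called lower, and the direction of their calls was set by the filter. Krt7 and Krt20, at 0 in the ESC-labelled library, could not be called higher. Among all 12663 genes tested, 31.4% were called higher and 36.0% lower, so a call on its own was common. Only 1 degree of freedom was left for the spread in this test, and it came from the MEF pair alone. The median difference was -0.41 over all genes tested.

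By size alone, 10 keratins exceeded both MEF libraries by at least 1 log2 unit and 3 fell short of both by as much. Over the 17810 genes with a count, 21.9% were above and 25.9% below by this rule. The 10 were Krt8, Krt13, Krt14, Krt16, Krt17, Krt19, Krt77, Krt83, Krt84 and Krt90, and the last 4 of them had only 2 to 4 counts. The 3 were Krt7, Krt20 and Krt80. The median difference was 0.78 over the 23 keratins with a count and -0.13 over all 17810 genes. The first value is that of a gene with 1 count in the ESC-labelled library and 0 in MEFs, such as Krt12. The second is that of a gene with 1 count in ICR MEFs only, so the medians do not show a rise of the keratins as a family. With TPM in place of CPM only Krt8, Krt14, Krt16 and Krt17 remained above both MEF libraries by this rule. TPM moved the median difference of genes with at least 10 counts by -1.11. The 5 genes with the highest TPM held 25.8% of all TPM in the ESC-labelled library and 5.72% and 5.00% in OG2 and ICR MEFs.

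**Figure D2:**
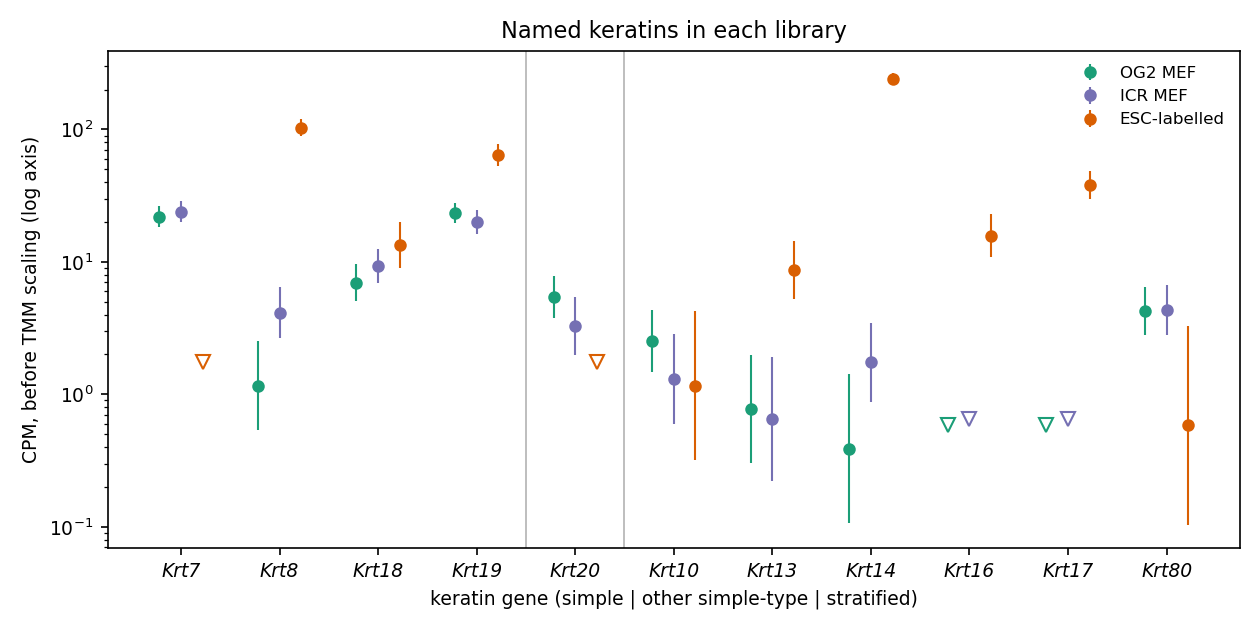
The 11 keratins with at least 10 counts in a library. Points are CPM before TMM scaling on a log axis, bars are 95% Wilson intervals for counting error in that library, and open triangles mark 3 counts where the count was 0. The highest point is Krt14 at 241 CPM in the ESC-labelled library, while Krt7 and Krt20 have points in both MEF libraries only.

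The simple keratins did not move together. Krt8, Krt18 and Krt19 were called higher in the ESC-labelled library on the CPM scale, with Krt18 turning to a difference of -0.37 on the TPM scale, and Krt7 was called lower. Krt8 (ENSMUSG00000049382, GRCm38 chr15:101996698-102004482, minus strand) is the type II keratin of simple epithelia. It had 6 counts in the OG2 library, 19 in the ICR library and 177 in the ESC-labelled library, or 1.31, 4.83 and 54.1 TPM. The ESC-labelled library was far above both MEF libraries, and the 95% Wilson interval of its share before TMM scaling (88.9 to 119 CPM) did not meet those of OG2 MEFs (0.534 to 2.54 CPM) or ICR MEFs (2.65 to 6.46 CPM). On the log2 scale Krt8 was 1.64 ± 0.83 in MEFs (SD, n = 2), and the ESC-labelled library was higher by a difference of 5.36 (edgeR adjusted p = 1.39e-06).

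Krt18 (ENSMUSG00000023043, chr15:102028180-102032027, plus strand) is the type I partner of Krt8 and lies next to it in the type II cluster. It had 36 counts in the OG2 library, 43 in the ICR library and 23 in the ESC-labelled library, which has the smallest total. Its difference on log2(CPM + 1) was 1.08 (edgeR adjusted p = 0.0187). Its TPM of 10.5, 14.5 and 9.29 placed the ESC-labelled library slightly below both MEF libraries, and DESeq2 gave an adjusted p of 0.235. Whether Krt18 differed thus depended on the scale and the test.

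Krt19 (ENSMUSG00000020911, chr11:100140810-100148665, minus strand) is the small type I keratin of ducts and of many simple epithelia. It had 121 counts in the OG2 library, 92 in the ICR library and 110 in the ESC-labelled library. On log2(CPM + 1) it was 4.36 ± 0.18 in MEFs (SD, n = 2) and 6.32 in the ESC-labelled library, a difference of 1.96 (edgeR adjusted p = 1.98e-05). On the TPM scale the difference was 0.13, with levels of 34.6, 36.4 and 39.0 TPM. Krt19 was the only keratin above 30 TPM in all 3 libraries.

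Krt7 (ENSMUSG00000023039, chr15:101411043-101430313, plus strand) is a type II keratin of glandular and lining epithelia and of mesothelium. It had 113 counts in the OG2 library, 110 in the ICR library and 0 in the ESC-labelled library, or 17.9, 19.0 and 0 TPM. With 3 counts taken as the limit of the ESC-labelled library, Krt7 was at least 9.32-fold lower there than in the lower of the MEF libraries (edgeR adjusted p = 0.000115). Krt20 (ENSMUSG00000035775, chr11:99428403-99438150), a type I keratin of intestinal and urothelial surface cells, had 28, 15 and 0 counts in the same order. It was at least 1.35-fold lower than in the lower of the MEF libraries (edgeR adjusted p = 0.0303), but DESeq2 gave an adjusted p of 0.15. The other keratin of this kind, Krt23, was at 0 in all 3 libraries.

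Markers of mesothelium, an epithelium that lines body cavities and makes Krt7, Krt8, Krt18 and Krt19, were present in the MEF libraries beside these keratins. All 5 markers had counts in both MEF libraries, with sums of 78.3 and 102 TPM. In the ESC-labelled library Upk1b and Lrrn4 were at 0 and Upk3b and Wt1 had 1 count each, while Msln had 522 counts and brought the sum to 135 TPM. By edgeR with Benjamini-Hochberg adjustment Upk3b, Upk1b and Lrrn4 were lower, Wt1 was not called (adjusted p = 0.0601) and Msln was higher. Upk1b and Lrrn4, at 0 in the ESC-labelled library, could not be called higher. Over all genes tested 31.4% were called higher and 36.0% lower. The part of mesothelial cells in the simple keratins of MEFs was not tested.

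By level, the stratified keratins of the ESC-labelled library were mainly Krt14, with 205 of 245 TPM, followed by Krt17 and Krt16. Krt5 and Krt15, which are also keratins of basal cells, were at 0 in that library. The tables held 18 stratified keratins, of which 8 had a count in the ESC-labelled library, 6 in OG2 MEFs and 4 in ICR MEFs. Krt14 (ENSMUSG00000045545, chr11:100203162-100207548, minus strand), the type I keratin of basal keratinocytes, had 2 counts in the OG2 library, 8 in the ICR library and 414.44 in the ESC-labelled library. Both MEF libraries were near the limit of detection. On log2(CPM + 1) Krt14 was 0.89 ± 0.64 in MEFs (SD, n = 2) and 8.22 in the ESC-labelled library, a difference of 7.32 (edgeR adjusted p = 1.14e-07). Its share in the ESC-labelled library was 241 CPM before scaling (95% Wilson interval 219 to 265 CPM).

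Krt17 (ENSMUSG00000035557, chr11:100256217-100261029, minus strand), a type I keratin of hair follicles and of wounded epidermis, had 0 counts in both MEF libraries and 65.25 in the ESC-labelled library. It was at least 80.3-fold higher there, with 3 counts taken as the limit of each MEF library (edgeR adjusted p = 5.65e-06). Krt16 (ENSMUSG00000053797, chr11:100246091-100248902, minus strand), the type I keratin made with Krt6a in wounded epidermis, had 0, 0 and 27.3 counts. It was at least 33.4-fold higher (edgeR adjusted p = 0.000128). On the TPM scale the differences of Krt14, Krt17 and Krt16 were 6.46, 4.62 and 3.43, so their direction held on both scales.

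The counts of Krt14, Krt16 and Krt17 were the only keratin counts that were not whole, and they were not whole only in the ESC-labelled library. Where a read fits more than 1 gene, RSEM assigns fractions of it to each. The study describes pairs of reads of 50 bases each. The transcripts were cut into all stretches of 50 bases and each was looked for in the transcripts of every other gene. Of these stretches 13.9% of Krt14, 12.4% of Krt16 and 3.99% of Krt17 occurred in another gene, which was always a keratin. The genes with the most shared stretches were Krt16 for Krt14, and Krt14 for both others. The longest stretch that Krt14 and Krt16 had in common was 134 bases in exon 1 of both genes, shown here from the GENCODE M21 transcripts as the minus strand of GRCm38 chr11:100207005-100207162 for Krt14 and of chr11:100248464-100248621 for Krt16. Capitals mark the identical bases and lower case the 12 coding bases on either side. A single read that falls within the capitals fits both genes equally, but its mate may lie outside them and tell the genes apart. The shares of stretches take each read alone, so they may overstate how many pairs of reads fit more than 1 gene.
Krt14: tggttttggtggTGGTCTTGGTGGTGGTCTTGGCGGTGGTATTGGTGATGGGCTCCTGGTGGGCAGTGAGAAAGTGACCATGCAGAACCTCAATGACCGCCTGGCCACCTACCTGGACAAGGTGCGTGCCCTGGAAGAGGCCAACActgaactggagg
Krt16: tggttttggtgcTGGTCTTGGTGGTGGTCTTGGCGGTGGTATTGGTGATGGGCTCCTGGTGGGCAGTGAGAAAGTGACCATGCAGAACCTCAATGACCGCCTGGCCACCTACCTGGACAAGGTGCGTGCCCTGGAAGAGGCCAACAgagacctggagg

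The longest stretch common to Krt14 and Krt17 was 71 bases across the junction of exons 6 and 7, within chr11:100204015-100204196 for Krt14 and chr11:100257340-100257521 for Krt17, both on the minus strand and shown with the intron left out.
Krt14: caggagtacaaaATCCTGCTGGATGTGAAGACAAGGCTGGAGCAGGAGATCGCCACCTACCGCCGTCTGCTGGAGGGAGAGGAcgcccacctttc
Krt17: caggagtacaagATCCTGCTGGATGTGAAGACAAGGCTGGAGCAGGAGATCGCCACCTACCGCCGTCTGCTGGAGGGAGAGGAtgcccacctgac

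Most stretches of each gene were its own. Which stretches the reads came from is not given by a table of counts per gene, so the division of counts among the 3 genes is less certain than their sum. The gene length behind the TPM of Krt14 also differed between libraries. Krt14 has a coding transcript of 1698 bases and a noncoding transcript of 1122 bases without the first coding exon, and RSEM sets the gene length from their estimated shares. The share of the noncoding transcript by this length was 0% in the OG2 library, 53.0% in the ICR library and 91.5% in the ESC-labelled library. At the length of the coding transcript, Krt14 would have 135 TPM in the ESC-labelled library in place of 205 TPM, which is still the highest keratin level of that library.

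The other named stratified keratins had lower counts. Krt13 (ENSMUSG00000044041, chr11:100117327-100121566), the type I keratin of mucosal epithelium above the basal layer, had 4 counts in the OG2 library, 3 in the ICR library and 15 in the ESC-labelled library. Its difference was 2.84 on log2(CPM + 1) (edgeR adjusted p = 0.00153) and 1.17 on the TPM scale. Krt10 (ENSMUSG00000019761, chr11:99385254-99389364), the type I keratin of differentiating epidermis, had 13, 6 and 2 counts and was not called, with a difference of -0.14 (edgeR adjusted p = 0.943). Krt80 (ENSMUSG00000037185, chr15:101347444-101370162), a type II keratin of several epithelia, had 22 and 20 counts in the MEF libraries and 1 in the ESC-labelled library, a difference of -1.51 that was not called (edgeR adjusted p = 0.107). The Krt80 levels of the MEF libraries were nearly equal, at 4.90 and 5.18 TPM, against 0.31 TPM.

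Of the 12 keratins with fewer than 10 counts none had more than 4. Counts only in the ESC-labelled library were found for 10 keratins, of which Krt16 and Krt17 were described above. The other 8 were Krt90 with 4 counts, Krt77, Krt83 and Krt84 with 2 each, and Krt12, Krt42, Krt81 and Krt88 with 1 each. Krt77 is a keratin of sweat ducts and epidermis, and Krt12 is the type I keratin of corneal epithelium. Counts only in MEFs were found for 6 keratins, namely Krt7 and Krt20, with Krt15, Krt79, Krt87 and Krt222 at 1 or 2 counts per library. Differences between libraries cannot be read from counts this low. The share of all genes with counts in 1 group only was not computed, so these numbers of keratins cannot be called particular to the family.

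Hair keratins were close to the limit of detection. Of 13 hair keratins 4 had a count in any library, with 0 counts in total in the OG2 library, 2 in the ICR library and 5 in the ESC-labelled library, which is 0, 0.50 and 1.51 TPM. All 8 keratins of the inner root sheath and companion layer, the tissue that guides the growing hair, had 0 counts in the 3 libraries. A count of 0 allows shares of up to 0.583, 0.654 and 1.75 CPM in the 3 libraries.

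Neighbouring keratin genes on chromosome 11 differed widely in level. From position 100117327 to 100269871 of GRCm38 the members are Krt13, Krt15, Krt19, Krt9, Krt14, Krt16, Krt17 and Krt42 in this order. In the ESC-labelled library their counts were 15, 0, 110, 0, 414.44, 27.3, 65.25 and 1. Krt14, Krt16 and Krt17 were thus neighbours. Krt9, the keratin of sole epidermis, was at 0 beside them, and Krt15, another keratin of basal cells, was at 0 between Krt13 and Krt19. The 5 hair keratins that precede Krt13 on the chromosome, Krt34, Krt31, Krt32, Krt35 and Krt36, were at 0 in all 3 libraries.

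Type I and type II chains form filaments in equal amounts, so their transcripts were compared. The sum of the 26 type I keratins was 56.4 TPM in the OG2 library, 59.8 TPM in the ICR library and 293 TPM in the ESC-labelled library. The sum of the 23 type II keratins was 24.3, 29.5 and 57.8 TPM. Type I thus exceeded type II by 2.33 times and 2.03 times in the MEF libraries and by 5.07 times in the ESC-labelled library. The last ratio includes Krt14 at 205 TPM and would be lower with its 135 TPM at the length of the coding transcript.

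Partner keratins did not occur in matching amounts. Krt18 exceeded Krt8 by 7.99 times in OG2 MEFs and 3.00 times in ICR MEFs on the TPM scale, whereas Krt8 exceeded Krt18 by 5.82 times in the ESC-labelled library. Krt19 exceeded Krt7 by 1.94 and 1.91 times in the MEF libraries, and in the ESC-labelled library Krt7 was at 0. Krt5, the type II partner of Krt14 in basal cells, had 0 counts in all 3 libraries, including the ESC-labelled library with its 414.44 counts of Krt14. Krt1 and Krt4, the type II partners of Krt10 and Krt13, were also at 0 in all 3 libraries.

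**Figure D3:**
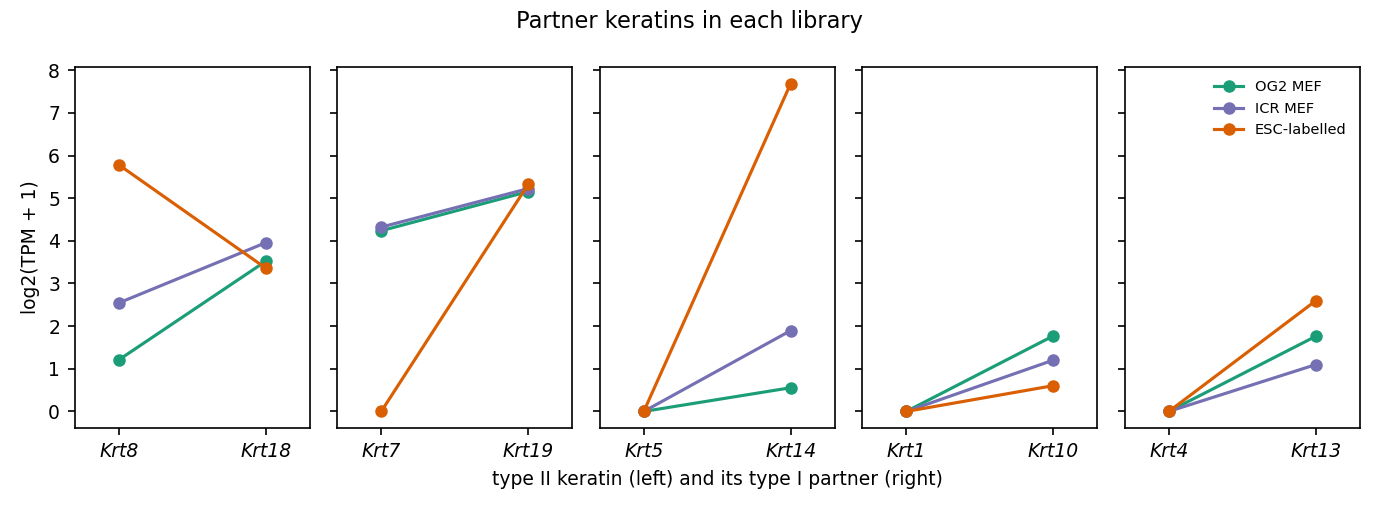
Partner keratins in each library. Each panel joins the level of a type II keratin (left) to that of its type I partner (right), as log2(TPM + 1), with 1 line for each library and no error bars. The Krt8 and Krt18 lines of the MEF libraries cross that of the ESC-labelled library, and in the panels of Krt5, Krt1 and Krt4 all lines start at 0.

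The type II keratins whose symbols end in a letter fall outside the rule for members and were looked up because they could pair with the type I keratins found. Krt6a had 0 counts in both MEF libraries and 28 in the ESC-labelled library, at 6.73 TPM (edgeR adjusted p = 0.000112). Krt6b, and the hair keratins Krt33a and Krt33b, had 0 counts in all 3 libraries. With Krt6a and Krt6b included, type II keratins in the ESC-labelled library summed to 64.5 TPM, and type I still exceeded them by 4.54 times. Of the 50-base stretches of Krt6a 49.5% occurred in another gene, mostly Krt6b. Krt5 had 8.52% of its stretches in another gene, of which Krt6a held the most with 6.98%, so the 0 counts of Krt5 concern a gene that is largely distinct.

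Genes that anchor keratin filaments at cell junctions were compared next. The list of anchors has 15 genes, of which 14 were in the tables and 10 were tested. Pkp1 and Evpl passed the filter on low counts on the ESC-labelled library alone, so they could not be called lower. The calls of this list and their median were thus partly set by the filter. By edgeR with Benjamini-Hochberg adjustment 6 were higher in the ESC-labelled library, 0 lower and 4 not called, with a median difference of 0.99 over those tested, against 31.4% higher, 36.0% lower and a median of -0.41 over all genes tested. Dsp, or desmoplakin, which links keratins to desmosomes, had 54, 65 and 236 counts, a difference of 3.83 (adjusted p = 4.17e-07). Pkp1, a desmosomal plaque protein of stratified epithelia, had 0, 2 and 32 counts, a difference of 4.35 (adjusted p = 0.000105). Evpl, a desmosomal and cornified-envelope protein, had 11, 5 and 23 counts, a difference of 2.86 (adjusted p = 0.000826).

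The other 3 called anchors changed direction with the scale. Plec, the linker protein plectin, had the highest TPM of the list, with 110, 119 and 80.4 TPM in the OG2, ICR and ESC-labelled libraries, and differences of 1.06 on log2(CPM + 1) and -0.50 on the TPM scale. Perp, a desmosomal membrane protein, had 0.92 and -0.62 on these scales, and Dst, or dystonin, had 0.48 and -1.11. Jup, or plakoglobin, was not called, with a difference of -0.55 (edgeR adjusted p = 0.0926). Dsg3, the desmosomal cadherin of basal keratinocytes, was at 0 in all 3 libraries. The list as a whole summed to 303, 349 and 191.5 TPM, and so was lower in the ESC-labelled library by this measure. TPM moved the median difference of genes with at least 10 counts by -1.11, so lower values on this scale are not particular to the anchors.

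Of 20 genes of keratinocyte differentiation only 6 had enough counts to be tested, and all 6 were higher in the ESC-labelled library by edgeR with Benjamini-Hochberg adjustment, with a median difference of 3.78, against 31.4% called higher and a median of -0.41 over all genes tested. Cnfn, or cornifelin, of the cornified envelope, had 0, 0 and 141 counts and was at least 174-fold higher (adjusted p = 5.87e-07). Sbsn, or suprabasin, of upper epidermal layers, had 48, 40 and 112 counts, a difference of 3.16 (adjusted p = 2.43e-06). Krtdap, a secreted protein of differentiating keratinocytes, had 0, 0 and 26 counts (adjusted p = 0.000145), and Cdsn, the corneodesmosome protein, had 32, 33 and 83 counts (adjusted p = 7.63e-06). Sfn and Tgm1 were the other 2. The filter lets a gene pass on the ESC-labelled library alone, as did Cnfn and Krtdap with 0 counts in both MEF libraries and Tgm1 with 2 and 1. The 6 calls and their median were thus partly set by the filter, and they do not speak for the 14 genes that were not tested.

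Among those 14, several defining genes of the lineage were not detected in the ESC-labelled library. Trp63, the transcription factor of basal keratinocytes, had 1 count in the OG2 library, 3 in the ICR library and 0 in the ESC-labelled library. Ivl, Flg, Sprr1b, Sprr3, Grhl3 and Calml3 were also at 0 in the ESC-labelled library, and Lor, or loricrin, had 1 count. The whole list summed to 32.1 TPM in the OG2 library, 31.5 TPM in the ICR library and 446 TPM in the ESC-labelled library.

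Markers of the epithelia that could carry these keratins were mixed in the ESC-labelled library. Of 10 markers of stratified epithelium, 4 were called higher by edgeR (Krtdap, Perp, Sfn and Pkp1, of which Perp turned lower on the TPM scale) and 6 were not tested, with Trp63, Dsg3 and Calml3 at 0. Krtdap, at 0 in MEFs, and Pkp1, with 0 and 2 counts, passed the filter on the ESC-labelled library alone. The 4 calls were thus partly set by the filter, and 31.4% of all genes tested were called higher. The 10 markers summed to 34.6 and 68.1 TPM in the MEF libraries and 95.2 TPM in the ESC-labelled library. None of 10 markers of simple epithelium had enough counts to be tested. By size alone 7 exceeded both MEF libraries by at least 1 log2 unit, against 21.9% of all genes with a count. All 10 summed to 2.53, 0.99 and 12.1 TPM. Epcam had 11 counts and Cdh1, or E-cadherin, had 2 in the ESC-labelled library, with 0 of either in MEFs.

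Of 8 trophoblast markers, 1 (Gata3) was tested and called higher, though it was slightly lower on the TPM scale, and Ascl2 (0, 0 and 10 counts), Elf5 (0.37, 0 and 12.16) and Tfap2c (0, 1 and 3) also had more counts in the ESC-labelled library. The other 4, Cdx2, Hand1, Eomes and Plac1, were at 0 there. The trophoblast list summed to 3.34, 4.77 and 8.35 TPM. Of 6 corneal epithelium markers, Aldh3a1, Slurp1, Lypd2 and Tkt were called higher, of which Tkt turned lower on the TPM scale. The first 3 had 0 counts in both MEF libraries, so they could not be called lower, and 31.4% of all genes tested were called higher. Aldh3a1, which was already known to be high in these data when the list was made, had 0, 0 and 1845 counts, while Krt12, the defining keratin of cornea, had 1 count and Pax6 7.04 counts in the ESC-labelled library. The corneal markers summed to 173, 161 and 752 TPM. Nearly all of the sum in MEFs was Tkt, with 173 and 161 TPM, and Aldh3a1 alone supplied 594 TPM of the sum in the ESC-labelled library, so the higher sum there followed from the choice of that gene. The part of any such cells in the keratin levels of the ESC-labelled library was not tested.

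Other cytoplasmic intermediate filament genes were compared as well. Of 12 genes 7 were tested, and 3 were higher, 3 lower and 1 not called by edgeR with Benjamini-Hochberg adjustment, with a median difference of -0.59. Over all genes tested 31.4% were higher and 36.0% lower with a median of -0.41, so the list was close to the background. Vim, or vimentin, the main filament protein of fibroblasts, had 6918 and 6655 TPM in the OG2 and ICR libraries and 945 TPM in the ESC-labelled library, a difference of -1.14 on log2(CPM + 1) (adjusted p = 0.00239). Des, or desmin, of muscle, had 63.7, 41.4 and 3.70 TPM (adjusted p = 0.0037). Nes, or nestin, of neural and other progenitors, had 57.7, 73.6 and 59.7 TPM, and was called higher on the CPM scale with a difference of 1.41 but had -0.12 on the TPM scale. Vim alone thus exceeded the summed keratins in every library, by 6918 to 80.7 TPM in OG2 MEFs and by 945 to 351 TPM in the ESC-labelled library.

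The MEF libraries were compared with each other as well. Krt8 was the only keratin in which they were at least 1 log2 unit apart, with OG2 MEFs lower than ICR MEFs by a difference of -1.18. By this threshold 492 of 17810 genes, or 2.76%, were apart. Before TMM scaling, the 95% Wilson intervals of Krt8 in OG2 MEFs (0.534 to 2.54 CPM) and ICR MEFs (2.65 to 6.46 CPM) did not overlap. These intervals cover counting error only, and the MEF libraries differed by more than that over all genes (chi-square of 6.62 per degree of freedom). The share of all genes with intervals apart was not computed, so the gap cannot be called particular to Krt8. Krt14 had a difference of -0.91 on 2 and 8 counts, and the intervals of OG2 MEFs (0.107 to 1.42 CPM) and ICR MEFs (0.883 to 3.44 CPM) overlapped. Krt20 and Krt10 were each 0.61 higher in OG2 MEFs with overlapping intervals. With 1 library for each strain, strain and culture cannot be told apart.

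**Figure D4:**
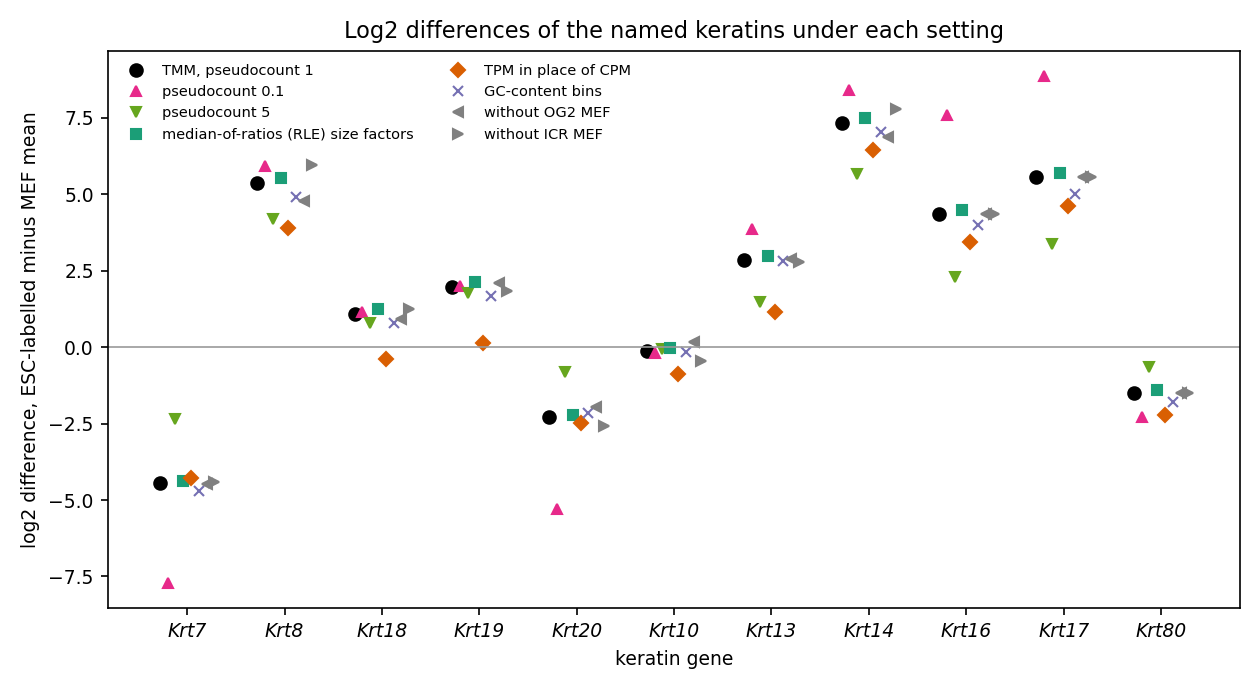
Differences of the 11 named keratins under each setting. The vertical axis is the log2 difference of the ESC-labelled library minus the MEF mean, and each symbol is 1 setting of scaling, pseudocount, GC-content correction or left-out MEF library. Krt8, Krt13, Krt14, Krt16, Krt17 and Krt19 stay above 0 and Krt7, Krt20 and Krt80 below 0 in all settings, while Krt18 turns to -0.37 with TPM and Krt10 to 0.17 without OG2 MEFs.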

How the data were processed

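RNA-seq libraries of OG2 MEFs, ICR MEFs and R1 ESCs were analysed, with 1 library each and with groups taken from the sample labels. Per the labels Bowtie, RSEM and mm10 were used. The study's methods name TRIMMOMATIC, bowtie2 and transcripts of Ensembl v67, and a NextSeq sequencer, whereas the design text names a MiSeq. The authors deposited for each gene an expected count (reads as RSEM estimated them, not scaled for depth), and TPM, which RSEM scales by effective length to a fixed sum. The deposited length and effective length were used only for Krt14 and to describe the libraries. FPKM was not used. The GC-content normalization that the methods name was taken to come after these values.

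Symbols, classes and positions came from GENCODE M21 (GRCm38), in which 98.3% of identifiers matched. The pseudogene Krt74 was left out. Expected counts were rounded, scaled by TMM and tested with edgeR 4.0.16 (R 4.3.3) under its filter on low counts, which was tested on simulated counts first. Each p-value sets the difference between the ESC-labelled library and MEFs against a spread estimated from the MEF pair. edgeR steadies this spread with that of other genes. Since these tests rest on 3 libraries and the labels name no separate cultures of 1 strain, the spread between ESC cultures is not covered. Wilson intervals and limits of 3 counts cover counting error only, because amplified reads carried no molecular identifiers. Keratins with at least 10 expected counts in 1 library were named with their values, and other members by counts, by class or, up to 5 at a time, by name. Longer runs of names were added after their values were seen. From each other list the 4 genes with the highest TPM in the ESC-labelled library were to be named, and further genes were picked after their values were seen. The members and lists were chosen with earlier results of these data known. Alternatives were DESeq2 1.42.0, median-of-ratios factors, other filters, pseudocounts of 0.1 and 5 in place of 1, TPM, 20 bins of GC content, counts not rounded, and each MEF library left out. Python 3.11.15, pandas 2.3.3 and matplotlib 3.10.9 were used.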

Additional observations from a re-analysis of the deposited data

How the results depend on the processing

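With DESeq2, 6 keratins were higher and 1 lower, since Krt18 (adjusted p = 0.235) and Krt20 (adjusted p = 0.15) were no longer called. Median-of-ratios factors in edgeR and a minimum of 10 counts kept 7 higher and 2 lower, and no filter on low counts gave 8 higher, the added gene being Krt90. The count of keratins at least 1 log2 unit above both MEF libraries was 6 with a pseudocount of 5, 4 with TPM, 14 with a pseudocount of 0.1, 8 with GC-content bins, and 10 to 11 with a MEF library left out. The count below both was 1 with a pseudocount of 5 and 3 to 3 with a MEF library left out. The summed keratin level of the ESC-labelled library was 4.13 times the MEF mean with TPM, 7.20 times with CPM, and 3.93 to 4.35 times with a MEF library left out. Simple keratins held 36.6% of keratins in the ESC-labelled library with CPM, and 79.7% to 83.6% in MEFs with a MEF library left out. The difference of Krt18 reversed to -0.37 with TPM, and that of Krt10 (-0.14) reversed to 0.17 without OG2 MEFs and was -0.44 without ICR MEFs. The length of Krt14 was varied after the data had been seen, which moved its level from 205 to 135 TPM. The summed keratin level, the share of stratified keratins and the ratio of type I to type II in that library include Krt14. They would fall with it and were not computed again. The causes of the other changes were not tested, except that leaving out a library changes the samples. No paired analysis was possible because only 1 library is labelled ESC, and edgeR could not be fitted with a MEF library left out because no residual degree of freedom would remain. With 1717838 counts in the ESC-labelled library, a keratin at 0 there may have a share of up to 1.75 CPM.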
